A study of Mus musculus with 8 samples.

Results

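Regions of accessible chromatin that were lost when EpH4 cells were treated with TGF-β were identified from FAIRE-seq, in which formaldehyde-fixed chromatin is sheared, extracted with phenol to recover the DNA least bound by nucleosomes, and sequenced. The peaks of all 8 libraries were merged into 37230 regions wherever they shared at least 1 bp, and a region was called wherever a library had a peak inside it. The lost regions were chosen by their calls in EpH4 cells: called in both untreated EpH4 libraries and in neither TGF-β-treated EpH4 library. There were 626 of them, 1.68% of all merged regions and 7.3% of the 8578 regions called in both untreated EpH4 libraries. Of the remaining regions called in both untreated libraries, 5931 were retained, that is, called in all 4 EpH4 libraries, and 2021 were called in 1 treated library. A further 1217 regions were gained, that is, called in both treated and in neither untreated EpH4 library.

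EpH4 is a line of mouse mammary gland epithelial cells, and EpRas is its derivative transformed with an active H-Ras. Each line was left untreated or given 1 ng/ml TGF-β3 for 8 days, with 2 biological replicates in each of the 4 groups. The EpRas line was cultured in less serum than EpH4, so that Ras and serum cannot be told apart between the lines. The promoter that drives H-Ras in EpRas cells was not given in the sources used here.

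Accessible chromatin marks promoters and distal enhancers that transcription factors can reach. AP1, formed by Fos and Jun proteins, binds many enhancers of epithelial cells downstream of growth factors. CTCF, a zinc finger protein, binds long motifs at insulators and at the anchors of chromatin loops. TGF-β signals through Smad proteins and, together with Ras, drives the epithelial-mesenchymal transition, in which epithelial cells take on mesenchymal features.

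The lists held 10821 to 27337 peaks, with 12462 and 13092 in untreated and 17927 and 10821 in treated EpH4 cells. Depth was unknown, since the lists hold no read counts, and a region that missed the authors' limit cannot be told apart from a closed one. Of 15 markers of mammary epithelium, 7 to 10 had a promoter peak in the EpH4 libraries and 2 to 8 in the EpRas libraries. Of 5 endothelial markers 0 had one in any library, of 8 fibroblast markers 0 to 2, and of 7 immune markers 0 to 1.

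The regions that ranked highest by their score in untreated EpH4 cells are shown first, because they were the clearest peaks among those that disappeared. Each window holds 200 bases of the mm10 plus strand around the midpoint of a region, and capitals mark matches to the AP1 (TGACTCA), ETS (CGGAA after A or C and before A or G) and RUNX (TGTGGTT) motifs on either strand.
Syt12 promoter, chr19:4477903-4478102: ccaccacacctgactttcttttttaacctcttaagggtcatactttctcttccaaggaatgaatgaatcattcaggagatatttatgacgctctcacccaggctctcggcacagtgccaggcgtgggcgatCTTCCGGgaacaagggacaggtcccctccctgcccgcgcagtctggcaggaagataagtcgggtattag
Cd9 intron, chr6:125483501-125483700: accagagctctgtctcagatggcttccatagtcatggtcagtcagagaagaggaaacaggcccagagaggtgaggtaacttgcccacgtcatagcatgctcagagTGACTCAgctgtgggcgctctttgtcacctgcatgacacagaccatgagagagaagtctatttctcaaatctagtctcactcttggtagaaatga
Ssr1 intergenic, chr13:37963479-37963678: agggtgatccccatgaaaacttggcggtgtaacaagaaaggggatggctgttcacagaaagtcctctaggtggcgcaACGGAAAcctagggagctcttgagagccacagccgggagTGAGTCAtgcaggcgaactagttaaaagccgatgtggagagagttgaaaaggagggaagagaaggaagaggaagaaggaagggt
E030018B13Rik intergenic, chr7:63851909-63852108: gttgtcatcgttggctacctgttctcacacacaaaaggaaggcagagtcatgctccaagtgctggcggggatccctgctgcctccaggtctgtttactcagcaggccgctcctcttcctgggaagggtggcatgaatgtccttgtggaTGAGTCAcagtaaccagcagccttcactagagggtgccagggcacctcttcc
Gm49121 intron, chr17:13924690-13924889: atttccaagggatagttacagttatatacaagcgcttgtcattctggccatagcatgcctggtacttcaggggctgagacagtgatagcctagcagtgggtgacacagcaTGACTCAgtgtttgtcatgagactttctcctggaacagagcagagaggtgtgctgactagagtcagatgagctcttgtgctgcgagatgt
Rapgef2 intron, chr3:79129334-79129533: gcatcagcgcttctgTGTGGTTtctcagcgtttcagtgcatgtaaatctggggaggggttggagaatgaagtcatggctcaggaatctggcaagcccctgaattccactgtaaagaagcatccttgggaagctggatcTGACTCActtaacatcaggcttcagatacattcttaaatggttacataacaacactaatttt

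An AP1 match lay in 5 of these 6 windows, all but that of Syt12, and an ETS match in the Syt12 and Ssr1 windows. The 6 are the top of the ranking and do not stand for the lost regions. In 500 bp windows, AP1 was in 41.4% of lost regions outside promoters, against 46.7% of all such regions. All 6 regions had been selected on their EpH4 calls and ordered by their EpH4 scores, so their EpH4 values are a description. The score is the number the authors' peak caller attached to a peak, without a stated unit, and its percentile within a list is used where libraries are compared.

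The Syt12 region (chr19:4477844-4478162) lay 0.556 kb upstream of the start site of *Syt12*, a member of the synaptotagmin family of membrane trafficking proteins. Its scores were 19.52 and 35.09 in the untreated EpH4 libraries, with no peak in either treated library. In EpRas cells it had peaks in all 4 libraries, with scores of 13.68 and 19.72 untreated and 30.86 and 20.64 with TGF-β. The region was thus called in every library but those of treated EpH4 cells.

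The Cd9 region (chr6:125483444-125483757) was in an intron of *Cd9*, which encodes a tetraspanin of the cell surface. It scored 18.38 and 24.21 in untreated EpH4 cells, and in EpRas cells 11.42 in untreated replicate 2 and 19.21 and 12.98 with TGF-β. The Ssr1 region (chr13:37963460-37963697) lay 30.5 kb from the start site of *Ssr1*, a subunit of the translocon-associated protein complex, and scored 17.88 and 24.64 in untreated EpH4 cells. It was called in no EpRas library, so that untreated EpH4 cells were the only group in which it was found.

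Among the 15 highest regions, 7 were within 2 kb of the start site of a protein-coding gene. These included *Shc1*, which encodes an adaptor between receptor tyrosine kinases and Ras, *Epha1*, an ephrin receptor, *Fosb*, a subunit of AP1, and *Acsl3*, a long-chain acyl-CoA synthetase. The Shc1 region lay 99 bp upstream of the start site and scored 18.44 and 20.92 in untreated EpH4 cells. In EpRas cells it scored 12.28 and 17.92 untreated and 31.91 and 18.76 with TGF-β. The Fosb region scored 16.73 and 24.84 in untreated EpH4 cells, 19.51 and 10.59 in untreated and 14.73 and 15.52 in treated EpRas cells. The Epha1 region (22.15 and 17.39 in untreated EpH4) and the Acsl3 region (20.55 and 17.98) were called in no EpRas library. For *Shc1*, *Epha1*, *Fosb* and *Acsl3* a peak in at least 1 EpH4 TGF-β library lay within 2 kb of an annotated start site of the same gene. That start site need not be the one at the lost region. For *Shc1* it was another one, since the nearest treated EpH4 peak lay 2797 bp from the region. The intron of *Cap1*, which encodes an actin-regulating protein, held a region with 3 AP1 matches in its 500 bp window that scored 22.47 and 16.84 in untreated EpH4 cells and was called in all 4 EpRas libraries.

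**Figure D1:**
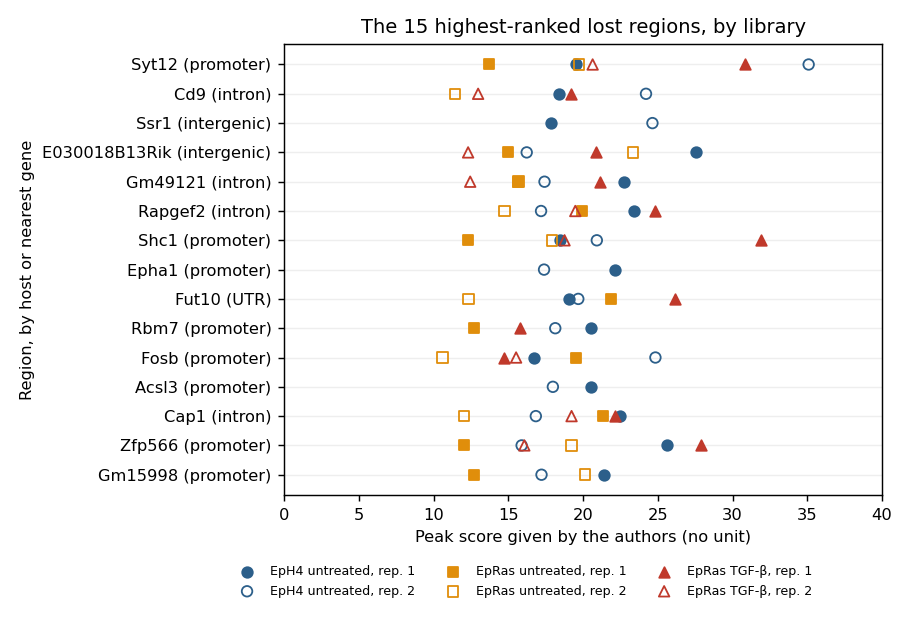
Peak score (horizontal axis, no unit) in each library for the 15 highest-ranked lost regions, named by host or nearest gene. Intergenic regions are named by the nearest protein-coding gene. Circles are untreated EpH4, squares untreated EpRas and triangles TGF-β-treated EpRas libraries, filled for replicate 1 and open for replicate 2, and the treated EpH4 libraries have no symbol because the rule requires that they have no peak. The Ssr1, Epha1 and Acsl3 rows hold EpH4 symbols only, and the Gm15998 row is the region within Efna3.

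Lost regions were weak peaks in the untreated cultures, which were kept alongside the treated ones for 8 days. Their median score was 12.9 in untreated replicate 1 and 12.2 in replicate 2, at percentiles 33.6 and 33.0 of the lists, and the highest scores were 27.57 and 35.09. Retained regions had medians of 17.3 and 16.7 and reached 775 and 770. Lost regions were also narrower, with a median width of 302 bp against 401 bp. By quintile of the mean score percentile over both untreated libraries, 18.2% of the regions in the lowest quintile were lost (314 of 1722), then 9.77%, 5.06% and 2.93%, and 0.466% in the highest (8 of 1716). These values come from the libraries that chose the regions and carry no test.

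**Figure D2:**
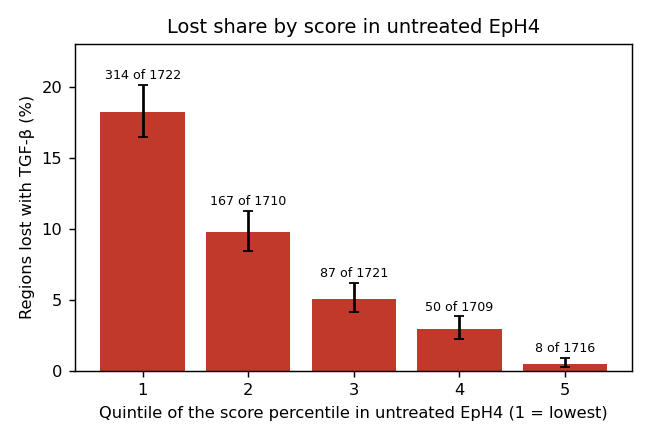
Share of the regions called in both untreated EpH4 libraries that were lost with TGF-β (vertical axis, %), by quintile of the score percentile in untreated EpH4 cells. Bars carry Wilson 95% intervals, and the share falls from 18.2% in the lowest to 0.466% in the highest quintile.

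Just outside the rule, 1780 regions were called in both untreated libraries and in TGF-β replicate 1 only, where their median score was 16.1 (percentile 52.4), and 241 were called in TGF-β replicate 2 only, where it was 12.8 (percentile 43.7). On the other side, 1486 and 1838 regions were called in untreated replicate 1 or 2 alone and in neither treated library. Without TGF-β replicate 1, 2407 regions met the rule, and without TGF-β replicate 2, 867. Asking the rule of 1 untreated library gave 2467 regions without untreated replicate 1 and 2114 without untreated replicate 2.

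An EpH4 TGF-β peak lay within 1 kb of 68 lost regions (10.9%, Wilson 95% interval 8.66 to 13.5) and within 20 kb of 349, and the median distance was 16.4 kb. The share within 1 kb was 6.29% with equal numbers of peaks and 5.61% without EpH4 TGF-β replicate 1. Such shares were not counted for other regions, so these have no background. Promoters, within 2 kb of a start site, held 227 of the 626 regions (36.3%, 32.6 to 40.1), against 44.6% of retained and 28.2% of gained regions and 31.7% of all merged regions. Introns held 208, intergenic sequence 177, coding exons 7, UTRs 5 and other exons 2. Given the score quintiles, 247 promoter regions would have been lost at the common rate, so the observed number was 0.919 times that expected from score. Of the 227 promoter regions, 42 (18.5%) had another treated EpH4 peak at a promoter of the same gene in at least 1 library, and 15 in both. These counts, too, have no background.

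By chromosome, the share lost was highest on chromosome 12, where 28 of 138 regions were lost (20.3%, Wilson 95% interval 14.4 to 27.8), 1.82 times the number expected from score quintiles. Chromosome 15 lost 49 of 498 regions (1.42 times) and chromosome 7 49 of 411 (1.30 times). Chromosome 8 lost 22 of 561 (3.92%, 2.60 to 5.87), 0.586 times the number expected. The treated replicates differed in the share of their peaks on these chromosomes. Chromosome 12 held 1.85% and 2.05% of the peaks in untreated and 1.86% and 1.34% in treated EpH4 replicates 1 and 2. In the same order chromosome 15 held 5.80%, 5.56%, 5.06% and 5.48%, and chromosome 7 4.85%, 4.94%, 4.83% and 4.28%. Chromosome 8 held 6.35%, 6.12%, 6.98% and 7.57%. Regions are not replicates, and these shares were not tested.

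**Figure D3:**
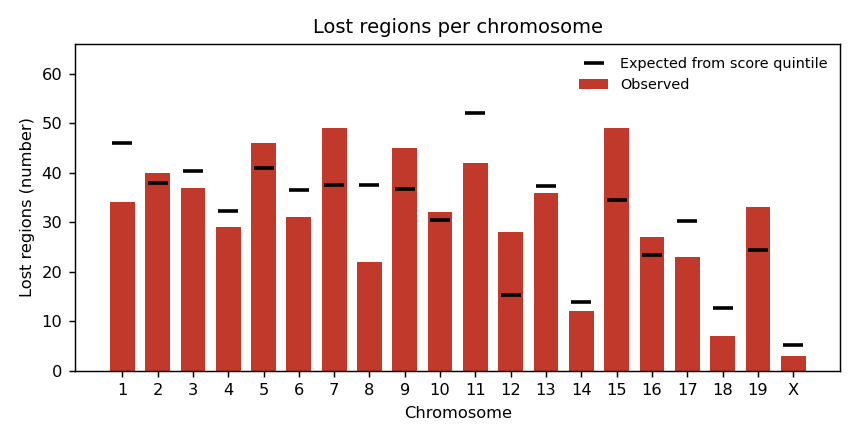
Number of lost regions on each chromosome (bars) and the number expected if every region were lost at the rate of its score quintile (black lines). Chromosome 12 holds 28 against 15.4 expected and chromosome 8 holds 22 against 37.5.

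The EpRas libraries, which the rule did not use, were then asked how often the lost regions were accessible in the transformed line. They were called in 49.2% and 41.1% of cases in the untreated and in 65.3% and 43.5% in the TGF-β-treated EpRas libraries. Over all merged regions, which include those called in EpRas cells only, the shares were 46.0%, 36.9%, 73.2% and 45.0%, so the lost regions were near this background, above it in both untreated and below it in both treated libraries. The corresponding shares of retained regions were 86.5%, 80.8%, 92.8% and 84.3%. Because lost regions were weaker, retained regions were also weighted to the lost ones by score quintile, which gave 79.6%, 71.4%, 89.0% and 76.4%. Lost regions were below these in 4 of 4 libraries, with a difference of −29.3 ± 3.96 percentage points (SD, n = 4 libraries, two-sided exact sign-flip permutation test, p = 0.125, the smallest that 4 libraries allow). The difference was −15.2 points when EpH4 TGF-β replicate 1 was left out. Retained regions were chosen by calls in both treated EpH4 libraries and lost regions by missing calls there. Weighting by the untreated score does not remove this choice. A lower share of lost regions in any further library could follow from it, so the test cannot show a difference particular to EpRas cells. This weighted comparison was chosen after the values had been seen.

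**Figure D4:**
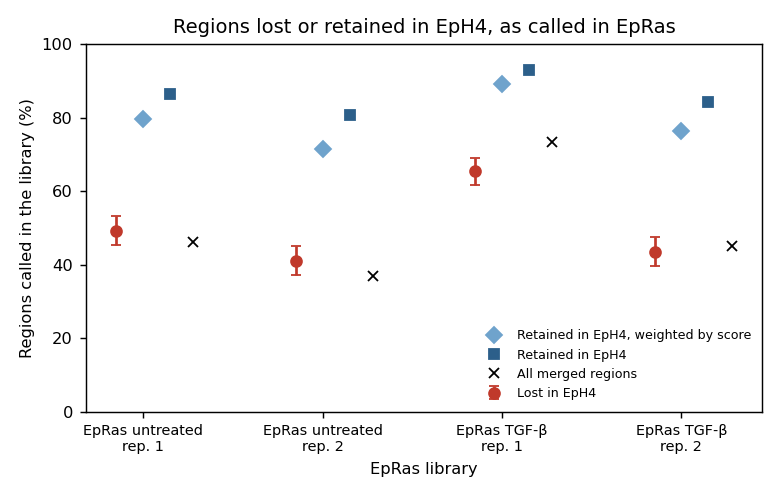
Share of regions called in each EpRas library (vertical axis, %) for the 626 lost regions (circles, Wilson 95% intervals), the 5931 retained regions (squares), the retained regions weighted to the same score quintiles (diamonds) and all merged regions (crosses). The lost regions, at 41.1% to 65.3%, lie below both sets of retained regions and near all merged regions, which are at 36.9% to 73.2%.

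The question of whether TGF-β closed these regions in EpRas cells as well was addressed next. The share of lost regions called was 45.1% ± 5.76 untreated and 54.4% ± 15.5 with TGF-β (SD, n = 2 each), a difference of 9.27 points that was within the spread (two-sided exact permutation test, p = 0.667, where 2 against 2 allow no p under 0.333). Relative to retained regions the difference was 0.16 on the log2 scale (exact permutation test, p = 0.667, n = 2 against 2), and relative to all merged regions it turned to −0.23. The median score percentile of the called regions differed by 4.18 (exact permutation test, p = 0.667, n = 2 against 2). The direction also turned without the longest list, EpRas TGF-β replicate 1, which held 27337 peaks. Without it the share differed by −1.68 points, and with equal numbers of peaks per library by −4.91 points, with 39.2% and 40.8% called in untreated and 34.8% and 35.3% in treated EpRas cells (exact permutation test, p = 0.333, n = 2 against 2). Equal numbers of peaks gave 795 lost regions, partly other ones: 383 overlapped, 61.2% of the 626 and 48.2% of the 795.

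Region by region, 158 of the 626 were called in no EpRas library (25.2%, Wilson 95% interval 22.0 to 28.8), against 4.72% of retained regions and a background of 14.2% over all merged regions. With EpH4 TGF-β replicate 1 left out, the share was 14.5%. All 4 EpRas libraries called 150 regions (24.0%), against 71.8% of retained regions and a background of 23.4%. These 150 regions scored at median percentiles of 59.3 and 51.1 in the untreated and 74.2 and 59.9 in the treated EpRas lists, against 37.7 and 42.0 in untreated EpH4. Calls in all 4 EpRas libraries chose these regions, and retained regions were higher in EpRas than in EpH4 lists too (67.9 and 68.7 in untreated EpH4, 75.9, 71.6, 83.6 and 74.7 in the EpRas lists), so the order is a description.

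The pattern of EpH4 cells, called in both untreated and in neither treated library, recurred in EpRas cells at 7 of the 626 regions (1.12%, Wilson 95% interval 0.543 to 2.29). The background was 0.927% of all merged regions and 0.548% of the regions called in both untreated EpH4 libraries, so the share of lost regions was near the background. It was 2.08% and 4.63% without EpRas untreated replicate 1 or 2, and 6.71% and 1.76% without EpRas TGF-β replicate 1 or 2. Leaving out a library loosens the pattern for every region, and the matching backgrounds were not computed. Both untreated and only 1 treated EpRas library called 6.23% of lost, 4.60% of retained and 4.34% of all merged regions. Only 1 untreated and no treated EpRas library called 4.47%, 1.08% and 6.95% of them. Of the 196 lost regions called in both untreated EpRas libraries, 150 (76.5%) were called in both treated ones, against 93.5% of 4557 retained regions and 81.6% of all 10678 merged regions called in both, a share within the interval of the lost regions (70.1 to 81.9). With equal numbers of peaks the EpH4 pattern was shared by 34 of 795 lost regions (4.28%, 3.08 to 5.92), beside 3.23% of all merged regions and 2.59% of those called in both untreated EpH4 libraries.

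All 7 shared regions are named. They lay within *Efna3*, an ephrin ligand gene, 1.57 kb downstream of the start site of the overlapping transcript *Gm15998*, and at the promoters of *Mospd3* and of *Gsap*, a gamma-secretase activating protein. The others lay between genes and are named by the nearest protein-coding start site. It was that of *Bard1*, the partner of BRCA1, at 120 kb, and of *Ifngr1*, the receptor of interferon gamma, at 73.0 kb. It was that of *Gnai2*, an inhibitory G protein subunit, at 9.36 kb, and of *Tacc1*, a coiled-coil protein of the centrosome, at 61.7 kb. For *Bard1*, *Ifngr1* and *Tacc1* another annotated start site was nearer, at 56.8 kb (*Gm16236*), 3.70 kb (*Gm48563*) and 43.0 kb (*5430421F17Rik*). The Efna3 region (chr3:89316861-89317146) scored 21.39 and 17.22 in untreated EpH4 and 12.71 and 20.12 in untreated EpRas cells. The Mospd3 region (chr5:137600627-137600922) scored 15.83 and 15.37 in untreated EpH4 and 19.51 and 12.34 in untreated EpRas cells, and its nearest treated EpH4 peak was 70 bp away. The windows of these 2 regions, the highest of the 7, are shown as above.
Efna3 gene, chr3:89316904-89317103: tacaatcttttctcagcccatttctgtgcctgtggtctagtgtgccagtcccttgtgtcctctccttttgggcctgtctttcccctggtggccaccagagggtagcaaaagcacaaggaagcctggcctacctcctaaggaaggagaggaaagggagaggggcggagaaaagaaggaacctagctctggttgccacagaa
Mospd3 promoter, chr5:137600675-137600874: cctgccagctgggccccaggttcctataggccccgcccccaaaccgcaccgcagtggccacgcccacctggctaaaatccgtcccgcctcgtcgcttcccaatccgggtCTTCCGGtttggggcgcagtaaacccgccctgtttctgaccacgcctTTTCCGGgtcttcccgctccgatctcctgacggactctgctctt

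The Mospd3 window held 2 ETS matches and the Efna3 window none of the 3 motifs. The opposite pattern, called in both treated and in neither untreated EpRas library, was found at 27 lost regions (4.31%, Wilson 95% interval 2.98 to 6.20), against a background of 7.64% over all merged regions and 2.97% over those called in both untreated EpH4 libraries. This share was 10.9% and 9.11% when EpRas untreated replicate 1 or 2 was left out and 13.9% when EpRas TGF-β replicate 2 was. The backgrounds under these looser patterns were not computed. Only 1 untreated and both treated EpRas libraries called 11.3% of lost, 9.07% of retained and 9.27% of all merged regions. No untreated and only 1 treated EpRas library called 11.5%, 2.36% and 23.9% of them. The 5 highest of the 27 were at the promoters of *Vps11*, which acts in endosomal sorting, *Sdhc*, a subunit of succinate dehydrogenase, and *Fbxl15*, an F-box protein, and near *Ddx47*, an RNA helicase, and *Cmbl*. The Cmbl region (chr15:31561410-31561733) scored 16.28 and 14.67 in untreated EpH4 and 37.39 and 25.42 in treated EpRas cells.

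Motifs were counted in the 500 bp around the midpoint of the 399 lost regions outside promoters. The AP1 motif was in 165 of them (41.4%, Wilson 95% interval 36.6 to 46.2). It was in 55.2% of retained (53.5 to 56.9) and 53.9% of gained distal regions, in 46.7% of all 25424 distal regions, and in 7.63% (29 of 380) of windows 10 kb downstream of lost regions that touched no peak. Distal regions called in both untreated and 1 treated EpH4 library were between lost and retained ones, at 49.8% (47.0 to 52.7). From score alone 199 lost regions with the motif would have been expected, so 0.828 times that number was observed. The deficit was in the lower 3 quintiles of score, where 40.2%, 35.5% and 36.8% of lost against 49.0%, 57.6% and 57.3% of retained regions held the motif. In the fourth quintile 19 of 26 lost regions held it (73.1%, retained 55.4%) and in the fifth 5 of 5. At least 2 AP1 matches were found in 8.52% of lost and 16.2% of retained regions. Where present, the match was close to the centre, at a median of 27 bp from the midpoint in lost and 38 bp in retained regions. The gap between lost and retained regions was −13.8 points, and −5.99 points when EpH4 TGF-β replicate 1 was left out.

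Lost regions with the AP1 motif were the ones more often accessible in EpRas cells. In the untreated EpRas libraries 54.5% and 49.7% of the 165 regions with the motif were called, against 38.9% and 26.9% of the 234 without it, and with TGF-β 73.9% and 56.4% against 50.0% and 33.3%. The difference was 21.4 ± 3.83 points (SD, n = 4 libraries), and it was 4.61 ± 1.39 points in retained regions. The lost regions exceeded the retained ones in this difference by 16.7 ± 3.53 points, higher in 4 of 4 libraries (two-sided exact sign-flip permutation test, p = 0.125, again the smallest possible). Retained regions, called at 73.7% to 92.3%, had less room to differ. Distal regions at large went the same way. The motif was in 50.5% and 52.0% of those called in untreated and 52.0% and 55.7% in treated EpRas libraries, against 46.7% of all distal regions. Their difference in points was not computed. Median score percentiles in untreated EpH4 cells were 35.0 with and 34.5 without the motif. Of distal lost regions called in all 4 EpRas libraries 60.0% held AP1 (54 of 90), and of those called in none 28.6% (34 of 119, Wilson 95% interval 21.2 to 37.3). In retained regions the shares were 57.5% (1232 of 2142) and 44.1% (98 of 222, 37.8 to 50.7), in the same order. This comparison, too, was chosen after the values had been seen.

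The CTCF motif was more frequent in lost than in retained regions, but not more than in distal regions at large. It was in 21 of the 399 distal lost regions (5.26%, Wilson 95% interval 3.47 to 7.91), 1.34% of retained (0.999 to 1.79), 2.40% of gained and 5.88% of all distal regions, which lies within the interval of the lost regions, and in 3 of 380 control windows (0.789%). Distal regions called in both untreated and 1 treated EpH4 library were in between, at 3.15% (2.30 to 4.31). Among the distal regions called in both untreated EpH4 libraries, 20.6% of the 102 with the motif were lost (13.9 to 29.4) and 7.95% of the 4756 without it, 2.09 and 0.972 times the numbers expected from score. Without EpH4 untreated replicate 1, the gap between lost and retained regions was 6.82 points in place of 3.92. The motif was within 20 bp of the midpoint in 17 of the 21 lost and 7 of the 44 retained regions. Of the 21 lost regions 10 and 5 were called in the untreated and 10 and 7 in the treated EpRas libraries, and 5 in none. Of the 44 retained regions with the motif 39, 34, 41 and 34 were called in these libraries, and of the 21 gained ones 7, 6, 10 and 5. Sites are shown for the 7 highest-ranked of the 21 lost regions, a choice made after their values were seen, with 8 bases on each side and the motif in capitals, in the direction of the motif.
Zmynd8, chr2:165819673-165819700, plus strand: gtctgtagCCACTAGGTGGCagcattca
Ptgis, chr2:167222324-167222351, plus strand: ccaggtggCCAGTAGGTGGCactctgtg
Ifne, chr4:88872882-88872909, plus strand: aatcttcaCCAGTAGAGGGCagaataac
Cux1, chr5:136259014-136259041, plus strand: gcccatgaCCACCAGGGGGCagtgtact
Gars, chr6:55017165-55017192, plus strand: cattatttCCACTAGGGGGCagcgctac
Ifngr1, chr10:19518950-19518977, minus strand: actcgaatCCACTAGATGGCaatgcagc
Etv4, chr11:101813434-101813461, plus strand: tgttgccgCCACCAGGTGGCagtgttgg

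The region near *Etv4*, an ETS transcription factor, lay 28.1 kb upstream of its start site (chr11:101813304-101813571). It scored 19.03 and 10.63 in untreated EpH4 cells and 14.87 and 19.23 in replicate 1 of untreated and of treated EpRas cells, and had no peak in either replicate 2. The Zmynd8 region, in an intron of a gene for a chromatin reader, ranked highest of the 21, with scores of 20.20 and 17.38 in untreated EpH4 cells and an EpRas peak in untreated replicate 1 only (14.87). The Ifngr1 region was 1 of the 7 lost in both lines. As share of all distal regions called in a library, CTCF motifs made up 5.65% and 4.55% in untreated and 4.81% and 3.58% in treated EpRas cells, a difference of −0.908 points that was within the spread (two-sided exact permutation test, p = 0.667, n = 2 against 2).

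**Figure D5:**
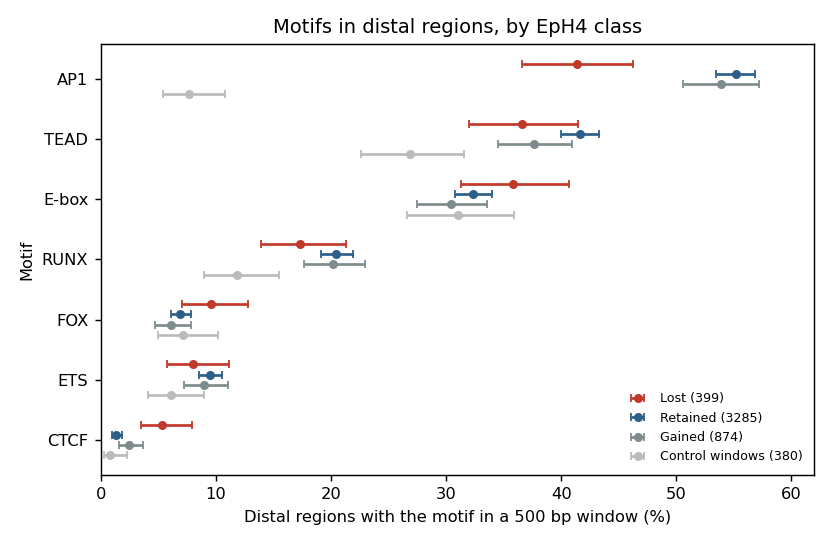
Share of distal regions with each motif in a 500 bp window (horizontal axis, %, Wilson 95% intervals) for lost, retained and gained regions and for control windows 10 kb downstream of lost regions. Lost regions lie below retained ones for AP1 (41.4% and 55.2%) and above them for CTCF (5.26% and 1.34%), where all distal regions, not drawn, are at 5.88%.

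For the next 5 motifs the Wilson 95% intervals of lost and retained distal regions overlapped. ETS was in 8.02% of lost and 9.47% of retained regions, RUNX in 17.3% and 20.5%, TEAD (CATTCC) in 36.6% and 41.6%, the E-box CAGGTG bound by ZEB and Snail proteins in 35.8% and 32.3%, and FOX (TGTTTAC) in 9.52% and 6.88%. Over all distal regions these shares were 9.09%, 17.9%, 34.1%, 29.2% and 7.95%. The palindromic SMAD motif GTCTAGAC was in 1 lost region and the full NF1 motif in 0 of 399, against 5 of 3285 retained regions. A fixed consensus misses weaker sites. At promoters, the GC box GGGCGG bound by KLF and SP factors was in 57.7% of the 227 lost regions (Wilson 95% interval 51.2 to 64.0), 73.4% of retained and 60.5% of all promoter regions, the last within the interval of the lost ones. From score, 158 lost promoter regions with it were expected and 131 found. Median GC content at promoters was 57.0% in lost and 59.2% in retained regions.

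Genes of 14 lists, chosen with earlier results of these data known, were searched for lost regions within 20 kb. A lost region was found at 19 of 351 list genes (5.41%) and at 808 of 21951 protein-coding genes (3.68%). These shares count genes, whatever the number of regions called at each, and do not show that regions at list genes were lost more often. Among epithelial identity factors 3 of 31 genes had one: *Klf4* and *Grhl2*, which maintain epithelial gene expression, and *Trp63*, the p53 relative of basal epithelium. The Klf4 region, in a coding exon (chr4:55530288-55530545), scored 12.39 and 17.89 in untreated EpH4 cells and was called in no EpRas library. The Grhl2 region, in an intron, scored 13.43 and 16.79 and had an EpRas peak in untreated replicate 2 (13.94) and TGF-β replicate 1 (17.71). The Trp63 region was weak, with scores of 9.07 and 9.23.

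Integrins and laminins had the most, with 5 of 20 genes, and 14.7% of the 34 regions called in both untreated EpH4 libraries at these loci were lost, beside 7.3% over all such regions. For the epithelial identity factors this share was 17.6% of 17 regions, for cytokines 11.1% of 36 and for milk genes 9.09% of 11. The other lists were below 7.3%: AP-1 factors 5.88% of 17, mesenchymal genes 4.17% of 24 and junction genes 3.92% of 51. Ras-MAPK genes lost 2.86% of 35 and the TGF-β pathway 2.63% of 38. Metabolism (28 regions), WNT and Notch (22), cell cycle (14), keratins (10) and NFI and C/EBP factors (6) lost 0. The integrin and laminin loci held 148 merged regions in all. The 5 genes were *Lama5* and *Lama3*, subunits of basement membrane laminins, *Itga3*, an integrin that binds them, and *Plec* and *Dst*, plakins that tie hemidesmosomes to the cytoskeleton. The Lama5 region scored 20.41 and 13.89 in untreated EpH4 cells, 12.73 and 9.02 in untreated and 27.29 and 11.75 in treated EpRas cells. The Plec region scored 12.81 and 20.49 in untreated EpH4 cells, 14.16 and 16.75 in untreated and 28.98 and 25.28 in treated EpRas cells. The regions at *Lama5*, *Lama3* and *Plec* were called in all 4 EpRas libraries.

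Of the cytokine and innate immunity genes 4 of 35 had a lost region. The regions at *Cxcl1*, a chemokine (11.88 and 22.06 in untreated EpH4), and *Relb*, an NF-κB subunit (19.03 and 10.82), were called in no EpRas library. The region at *Lif*, a cytokine of the interleukin 6 family (12.17 and 13.68), had scores of 18.45 and 15.22 in untreated and 31.93 and 20.99 in treated EpRas cells. The region at *Nfkb2* is the one named above as the *Fbxl15* promoter (19.73 and 12.45). In EpRas cells it was called in the treated libraries only (30.05 and 14.3). Epithelial junction genes had lost regions at 2 of 36 genes, *Nectin4*, an adhesion molecule, and *Afdn*, which links nectins to actin. Only 1 gene each was found among the TGF-β pathway (*Ltbp1*, which stores latent TGF-β in the matrix), the EGF receptor and Ras-MAPK genes (*Dusp5*, an ERK phosphatase), the AP-1 factors (*Fosb*), the mesenchymal genes (*Col1a1*) and the milk genes (*Glycam1*). None was found among the keratins, the NFI and C/EBP factors, cell cycle, lipid and glucose metabolism, or WNT and Notch genes of these lists.

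When lost regions within 100 kb of the next were grouped, 544 stood alone, 35 groups held 2 and 4 held 3. No other set of regions was grouped in this way, so these counts have no background. Of the 597 coding genes nearest to a lost region, 568 had 1 and 29 had 2. Groups of 3, each within 100 kb of the next, were found at 4 places. At *Ppl*, which encodes periplakin of the cornified envelope, and *Sec14l5*, 3 lost regions lay within 9.97 kb, and no other region was called there in any library. A pair of them lay less than 200 bp apart, so that joining peaks up to 200 bp apart ends the group of 3 there. The other groups were at *Aqp2*, *Aqp5* and *Faim2* (61.2 kb), where the Aqp5 promoter region scored 13.38 and 12.01 in untreated EpH4 and 25.44 to 29.93 in treated EpRas cells, at *Cd9* and *Plekhg6* (106 kb from the first to the last base), and at *Inpp5a* and *Pwwp2b* (120 kb).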

How the data were processed

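FAIRE-seq libraries of EpH4 and EpRas cells, 2 per group, were represented by 1 deposited peak list each. According to the study's methods and the submitters' processing notes, the authors trimmed Ion Proton reads to 36 bp, aligned them with Bowtie2 (mm10) and ran MACS2 2.0.9 on each library. Each deposited line gave a position and a score from the authors' peak caller. What the score measures, the use of a control and the handling of duplicates were not given in the sources used here, and no read depth could be stated. Scores are printed as deposited, and libraries were compared by calls and by score percentiles within each list.

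Peaks sharing at least 1 bp were merged (Python 3.11.15, pandas 2.3.3). Sequence was GRCm38.p6 (pysam 0.24.0), the assembly of mm10, and annotation GENCODE vM21 basic, with 81033 transcript start sites. Of 129466 peaks, 0 passed a chromosome end. Positions are 1-based. Groups and replicate numbers came from the labels. Libraries were compared by exact permutation or sign-flip tests (two-sided), and shares of regions carry Wilson 95% intervals (scipy 1.17.1), which cover counting within the lists only. The number expected from score applied the loss rate of each quintile of the untreated EpH4 score percentile. The regions and gene lists were chosen with earlier results of these data known. Regions were named by a fixed rule: the 15 highest by mean score percentile in untreated EpH4 cells, the highest with a given EpRas pattern, groups of 3 each within 100 kb of the next, and regions within 20 kb of a listed gene. The regions at Etv4 and Zmynd8 and the CTCF sites shown were chosen after their values were seen. The merging, test and motif code was tested on simulated data.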

Additional observations from a re-analysis of the deposited data

Results flagged for a closer look

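At 27 lost regions the EpRas libraries moved the opposite way to the EpH4 libraries in every replicate: both untreated EpH4 and both treated EpRas libraries had a peak, and both treated EpH4 and both untreated EpRas libraries had none. The difference between the lines was not tested. For the 5 highest of them, the mean scores in the treated EpRas libraries were 16.8 at *Vps11*, 19.9 at *Sdhc*, 15.9 at *Ddx47*, 31.4 at *Cmbl* and 22.2 at *Fbxl15*, and the mean scores in the untreated EpH4 libraries were 18.9, 16.8, 16.5, 15.5 and 16.1. The share of lost regions with this pattern (4.31%) was below that of all merged regions (7.64%) and above that of regions called in both untreated EpH4 libraries (2.97%).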

How the results depend on the processing

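Leaving out 1 library each changed the number of lost regions to between 626 and 2467, because the rule was then asked of fewer libraries. Each of untreated replicates 1 and 2 and TGF-β replicate 1 of EpH4 moved it by over 1.5 times (2467, 2114 and 2407), without EpH4 TGF-β replicate 2 it was 867, and the alternatives that kept all libraries gave 439 to 795. The TGF-β difference in the share called in EpRas was −4.91 points with equal numbers of peaks and −1.68 to 20.2 points with 1 library left out (negative without EpRas TGF-β replicate 1). Relative to retained regions it was −0.20 with equal numbers of peaks, −0.23 with all merged regions in place of retained ones, and −0.061 to 0.39 with 1 library left out. The score percentile difference was 0.504 to 7.86 with 1 library left out.

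Region by region, the calls of same-numbered libraries did not deviate together (correlation of deviations over all merged regions −0.00025 in EpH4 and 0.0014 in EpRas). Over the lost regions in EpRas it was 0.055. A difference shared by all regions of a library does not enter this correlation. Whether same-numbered cultures were prepared together could therefore not be settled. With the replicate number as a block the differences stayed 9.27 points, 0.16 on the log2 scale and 4.18 percentile points (exact sign-flip permutation test, p = 0.5 each, the smallest possible).

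The share called in no EpRas library was 39.0% with equal numbers of peaks, 21.4% with the stricter score limit and 14.5% to 36.8% with 1 library left out (lowest without EpH4 TGF-β replicate 1). The share lost in EpRas too was 4.28% with equal numbers of peaks and 0.872% to 6.71% over single left-out libraries (in EpRas, 2.08% and 4.63% when untreated replicate 1 or 2 and 6.71% and 1.76% when TGF-β replicate 1 or 2 was dropped). The opposite share was 2.39% with equal numbers of peaks and 4.11% to 13.9% over single left-out libraries (in EpRas, 10.9% and 9.11% when untreated replicate 1 or 2 and 13.9% when TGF-β replicate 2 was dropped). Leaving out an EpRas library loosens both patterns for every region, and the matching shares over all merged regions were not computed. The promoter share was 30.2% and 47.0% within 1 and 5 kb and 34.2% to 40.1% with 1 library left out. The AP1 share was 46.8% with equal numbers of peaks and 38.6% to 48.4% with 1 library left out. The difference from retained regions stayed negative for AP1 (−16.8 to −5.99 points) and positive for CTCF (2.15 to 6.82 points) with 1 library left out, the extremes over 1.5 times from the reported value being without EpH4 TGF-β replicate 1 and without EpH4 untreated replicate 1. A treated peak lay within 1 kb of 6.29% with equal numbers, 7.97% with the stricter limit, 8.18% with peaks 200 bp apart joined, and 5.61% to 11.8% with 1 library left out, and within 500 bp or 5 kb of 6.71% or 26.8%. The weighted difference in EpRas calls, an alternative added after seeing the data like the differences from retained regions, ranged from −40.5 to −15.2 points and was −29.1 with score deciles. Where values moved, the cause was not tested. Depth is unknown, so whether a missing peak was a closed site could not be settled.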
